A study of Mus musculus with 6 samples.

Results

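Coagulation and complement genes encode the plasma proteases, cofactors, inhibitors and pore-forming subunits of the clotting and complement cascades, nearly all made by hepatocytes. They were taken as the symbols of a list of 36 that stood as the single gene symbol of a probe. This gave 34 of the 16885 named genes measured, 20 of coagulation and 14 of complement, with 1 probe each. The symbols C3 and C4bp matched no probe and were not analysed here.

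In clotting, the contact proteases and the tissue factor route activate a chain of zymogens that ends in thrombin, which cleaves fibrinogen to fibrin, while serpins and the protein C system hold thrombin in check and plasmin dissolves the clot. In complement, the classical, lectin and alternative routes build convertases that cleave C3 and C5, after which the terminal components assemble into a membrane pore. The liver secretes most of these proteins into plasma, and several are acute phase proteins whose synthesis follows cytokine signals.

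Each of 6 arrays compared, in 2 colours, liver RNA of a single C57BL/6 mouse with a pool of liver RNA from 6 chow-fed C57BL/6 mice. All these mice were 7 weeks old. The 6 single mice ate the HFC diet, named a high fat diet in the sample titles, for 12 days. The groups were HFC plus fenofibrate, a PPARα agonist, at 100 mg/kg by mouth once daily from day 5 (2 mice), HFC plus lovastatin, an inhibitor of cholesterol synthesis, at 30 mg/kg on the same schedule (2 mice), and HFC with vehicle (2 mice). The lovastatin group follows the sample titles, because the treatment text of those 2 samples names fenofibrate. The pool was 1 RNA without replicates, so a ratio to it leaves out the spread between chow mice. The mouse was labelled with Cy3 on the 2 fenofibrate arrays and with Cy5 on the other 4, so fenofibrate and dye cannot be told apart gene by gene.

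Values are log2 ratios read as mouse over pool, a direction that is likely rather than stated. Arrays of both dye orientations correlated above 0 when read this way (r from 0.0569 to 0.316 across probes, which are not independent replicates). This does not settle the direction. Were the values Cy5 over Cy3 on all arrays, a gene-specific dye effect could also give r above 0. The standard deviation over probes ran from 0.419 to 0.57 on 5 arrays and was 1.09 on lovastatin replicate 1. On HFC replicate 2, the values of 4 of 8 blocks of array columns lay a fixed number of columns away from their probes. Those spots, which include 20 of the 34 member probes (12 of coagulation and 8 of complement), were set to missing. For these genes HFC rests on 1 array, and the value recovered by rotating the block back along the array row is given as "put back". In whole liver, fewer cells of a type and less RNA per cell cannot be told apart.

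The first comparison set all mice on the HFC diet against the pool, with both dye orientations weighted equally (the dye-balanced ratio). F11, coagulation factor XI, the contact pathway protease that activates factor IX, fell, at -1.39 on the log2 scale (SE 0.13, 95% interval -1.74 to -1.04, limma adjusted p = 0.0473), which is 0.381 times the pool. It was the 1 member of 34 past the threshold of adjusted p under 0.05, with 0 higher. Of all 19447 features tested, 0.396% were past it and lower. Its ratio was -1.83 and -1.65 in the fenofibrate mice, -0.93 and -1.22 in the lovastatin mice, and -1.02 on HFC replicate 1. All 5 values were below 0, the 2 fenofibrate mice lay lowest, and HFC replicate 2 had no value, put back or not. The call was lost without HFC replicate 2 (limma adjusted p = 0.0849), which has no F11 value itself. It was also lost without fenofibrate replicate 1 (limma adjusted p = 0.563) and without fenofibrate replicate 2 (limma adjusted p = 0.692). Without HFC replicate 1 it could not be tested. With displaced blocks put back the limma adjusted p was 0.0309. With the displaced spots kept as deposited, where F11 carries a misplaced value of -0.12, it was 0.0616. The call was also lost with quantile normalization (limma adjusted p = 0.0535) and with probes kept single (limma adjusted p = 0.0502). Read the other way round, the fenofibrate arrays gave F11 a reversed dye-balanced ratio of 0.35 (limma adjusted p = 0.902).

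The F11 promoter is shown because this gene carries the call. The RefSeq sequence (GRCm38.p6) spans 250 bases before to 50 after the annotated start, printed 5′ to 3′ with a C/EBP motif match in capitals.
F11 promoter, chr8:45261982-45262281, minus strand: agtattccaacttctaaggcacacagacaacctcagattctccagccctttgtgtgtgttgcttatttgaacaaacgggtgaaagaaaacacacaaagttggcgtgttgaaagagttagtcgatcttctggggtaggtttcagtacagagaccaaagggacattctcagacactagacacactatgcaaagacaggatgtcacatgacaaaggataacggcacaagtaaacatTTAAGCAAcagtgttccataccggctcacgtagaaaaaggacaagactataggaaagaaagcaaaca

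Klkb1, plasma prekallikrein, is the neighbour of F11 on chromosome 8 with 0 protein-coding genes between them. Its ratio was 0.13 and -0.01 in the fenofibrate mice, -0.04 and -0.14 in the lovastatin mice, and -0.1 and, put back, -0.08 in the HFC mice. Its dye-balanced ratio was -0.018 (SE 0.122, limma adjusted p = 0.967). All its values lay within 0.15 of 0, unlike those of F11. No test of the difference between these 2 genes was made.

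Beyond F11, most members lay below the pool by amounts that did not pass. In the dye-balanced ratio 32 of 34 were below 0, 19 of 20 coagulation genes and 13 of 14 complement genes, against 48.8% of all features. The median was -0.35 for coagulation genes and -0.25 for complement genes, against 0.008 over all features. The share also rests on the direction read for the fenofibrate arrays: with their sign turned 4 of 34 members were below 0 and 30 above, against 47.9% of all features below. At an unadjusted p under 0.05, 17 members were lower and 0 higher, 11 of coagulation and 6 of complement. Over all features 5.64% were lower and 5.19% higher at that level. The members with the largest negative ratios after F11 were Proz, C4b, Serpinf2 and C8b, and 2 lay above 0, Pros1 at 0.051 and Cfb at 0.25. Against the pool alone, 22 of 34 members were below 0 in the HFC mice and 22 of 34 in the lovastatin mice. The shares over all features were 47.9% and 50.8%.

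**Figure D1:**
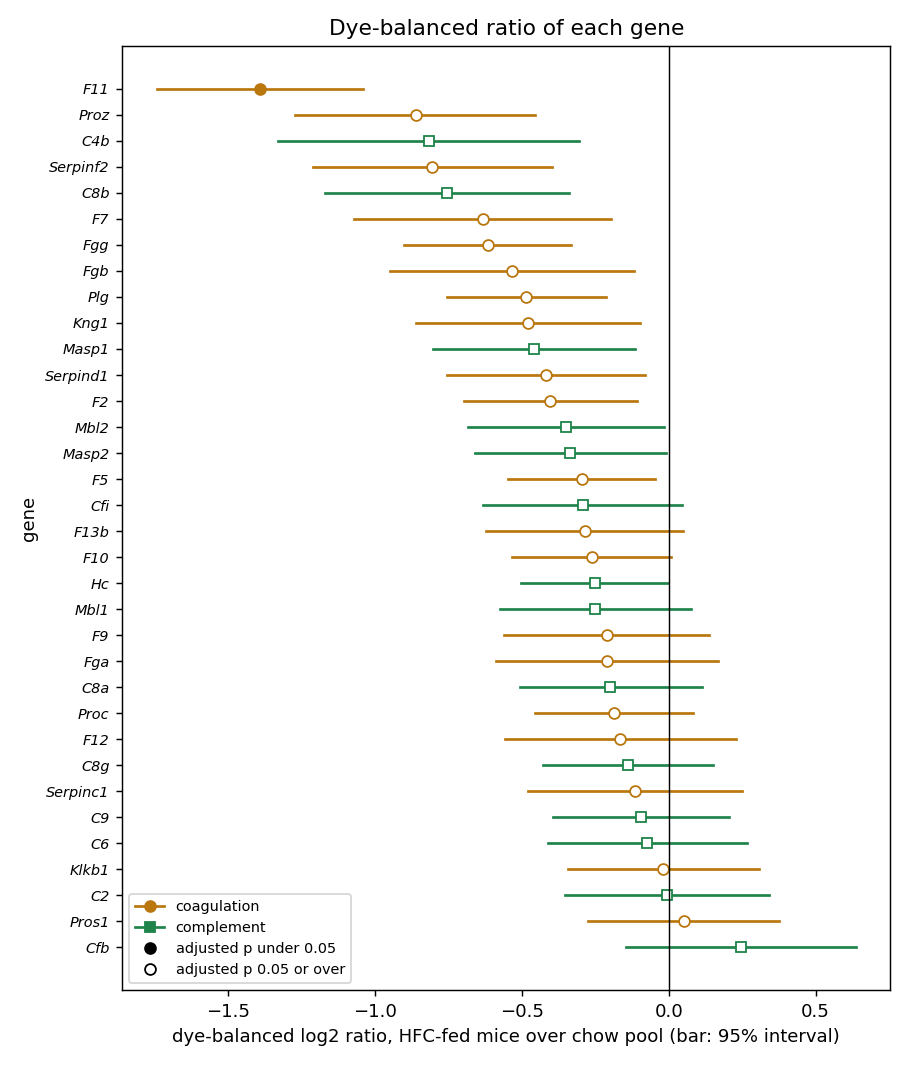
Dye-balanced log2 ratio of HFC-fed mice over the chow pool (x axis) for each of the 34 genes (y axis), with 95% intervals as bars. The filled point, F11, is the gene with adjusted p under 0.05, and 32 of the 34 points lie below 0.

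The size of the ratio differed by group. On the fenofibrate arrays the coagulation median was -0.52 and -0.53 and the complement median -0.41 and -0.53. On the lovastatin arrays the coagulation median was -0.05 and -0.2 and the complement median 0.015 and -0.055. On the HFC arrays, with the blocks of replicate 2 put back, the coagulation median was -0.15 and -0.1 and the complement median -0.11 and -0.01. The median over all features lay between -0.02 and 0.03 on every array. Both classes were lowest on the 2 fenofibrate arrays, where the mouse was in Cy3.

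**Figure D2:**
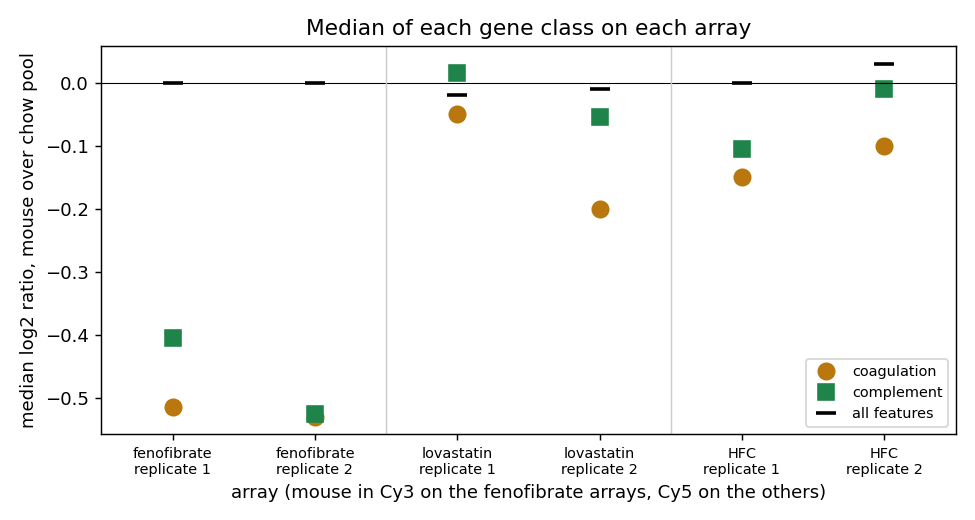
Median log2 ratio of mouse over chow pool (y axis) of the coagulation genes, the complement genes and all features on each of the 6 arrays (x axis), with displaced blocks of HFC replicate 2 put back. Both gene classes lie at or below -0.4 on the fenofibrate arrays and between -0.2 and 0.015 on the other 4.

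Against the pool alone, 33 of 34 members were below 0 in the fenofibrate mice, with a median of -0.47, 22 of 34 in the lovastatin mice (median -0.13) and 22 of 34 in the HFC mice (median -0.12). Of all features 50.1% were below 0 for fenofibrate, 50.8% for lovastatin and 47.9% for HFC. The 3 comparisons share the pool. By limma, 0 members passed in any of them, and the lowest adjusted p was 0.145 for fenofibrate, 0.393 for lovastatin and 0.962 for HFC. The share of all features past the threshold was 0.0616% for fenofibrate, 0% for lovastatin and 0% for HFC. At an unadjusted p under 0.05 the fenofibrate mice had 17 members lower and 0 higher, the lovastatin mice 2 lower and 1 higher, and the HFC mice 4 lower and 0 higher. At that level 3.78% of all features were lower and 3.85% higher for fenofibrate, 5.96% and 4.62% for lovastatin, and 2.44% and 2.29% for HFC.

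With displaced blocks put back, 33 members had a value on all 6 arrays. In 20 of them both fenofibrate values lay below all 4 values of the lovastatin and HFC mice (60.6%), against 10.9% of 18520 features. In 1 member, Klkb1, both lay above them, against 9.81% of features. The 20 were 12 of 19 coagulation genes and 8 of 14 complement genes. This count sets Cy3-labelled against Cy5-labelled mice and so holds any gene-specific dye effect. It also rests on the direction read for the fenofibrate arrays: with their sign turned, both lay below the other 4 in 0 of 33 members (14.5% of features) and above them in 24 (13% of features). All 6 values were below 0 in 10 members, against 5.84% of features, and above 0 in 0 members, against 6.09%.

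**Figure D3:**
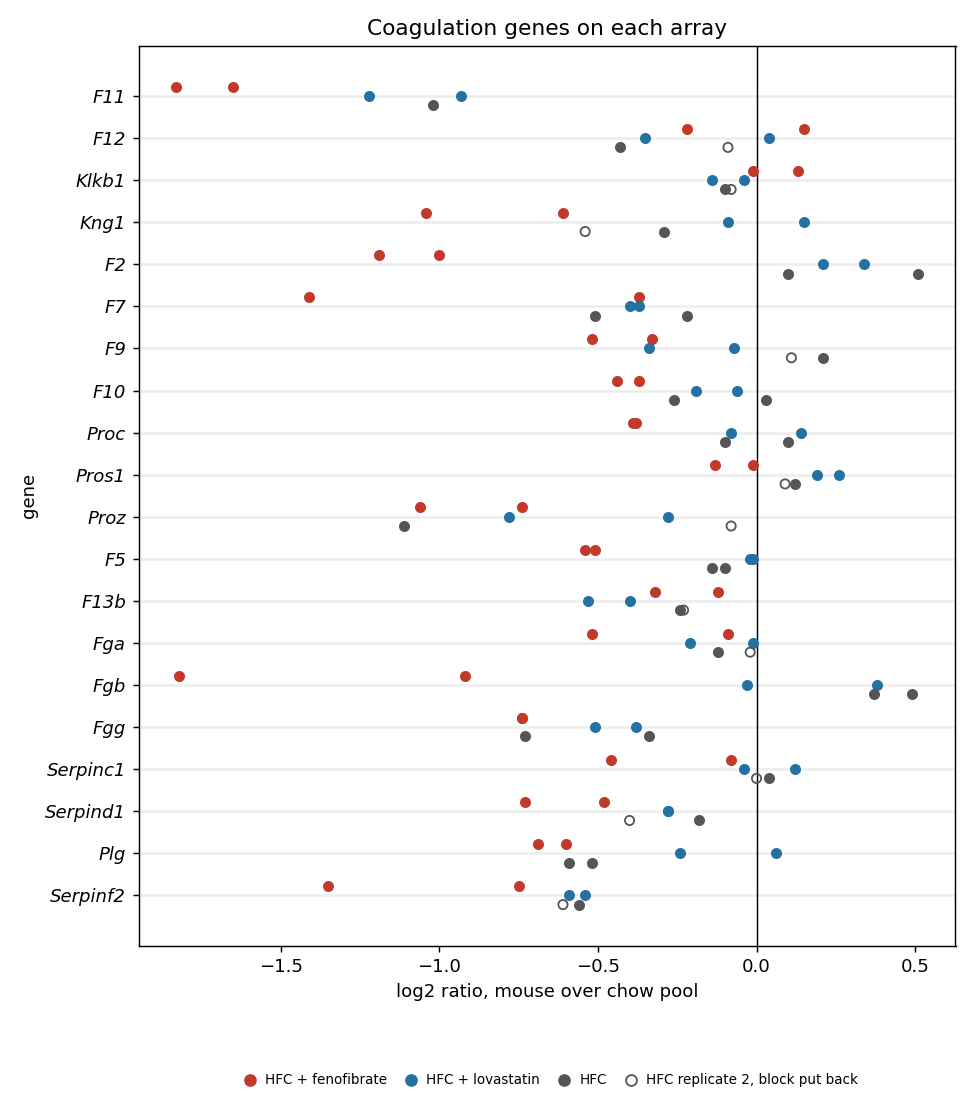
Log2 ratio of mouse over chow pool (x axis) for the 20 coagulation genes (y axis), with 1 point per array, coloured by group and open for HFC replicate 2 values put back. For F2 and Fgb the red fenofibrate points lie at -0.92 or lower and all other points at -0.03 or higher.

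The widest gaps between fenofibrate mice and the others were in thrombin and fibrinogen. F2 encodes prothrombin, the zymogen of thrombin. Its ratio was -1 and -1.19 in the fenofibrate mice, 0.34 and 0.21 in the lovastatin mice, and 0.1 and 0.51 in the HFC mice. The fenofibrate values were below 0 and the other 4 above, with no overlap. Fenofibrate minus HFC was -1.4 (SE 0.27, 95% interval -2.08 to -0.72), which did not pass over all features (limma adjusted p = 1).

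Fibrinogen is built from 3 chains encoded by Fga, Fgb and Fgg, which sit side by side on chromosome 3 with 0 protein-coding genes between neighbours. Fgb, the β chain, was at -0.92 and -1.82 in the fenofibrate mice, 0.38 and -0.03 in the lovastatin mice, and 0.37 and 0.49 in the HFC mice. Both fenofibrate values lay below the other 4. Fenofibrate minus HFC was -1.8 (SE 0.38, 95% interval -2.76 to -0.84, limma adjusted p = 1). Fgg, the γ chain, was at -0.74 on both fenofibrate arrays, -0.38 and -0.51 on the lovastatin arrays, and -0.34 and -0.73 on the HFC arrays. It lay below 0 on all 6, and its dye-balanced ratio was -0.61 (SE 0.113, limma adjusted p = 0.129). Fga, the α chain, was at -0.09 and -0.52 in the fenofibrate mice, -0.01 and -0.21 in the lovastatin mice, and -0.12 and, put back, -0.02 in the HFC mice. Its groups overlapped, and its dye-balanced ratio was -0.21 (SE 0.14, limma adjusted p = 0.677).

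The promoters of the 3 chains are shown because the fenofibrate means of these neighbours ran from -1.37 (Fgb) to -0.305 (Fga). No test of the difference between these 3 genes was made. Capitals mark motif matches, and lower case the rest.
Fga promoter, chr3:83025903-83026202, plus strand: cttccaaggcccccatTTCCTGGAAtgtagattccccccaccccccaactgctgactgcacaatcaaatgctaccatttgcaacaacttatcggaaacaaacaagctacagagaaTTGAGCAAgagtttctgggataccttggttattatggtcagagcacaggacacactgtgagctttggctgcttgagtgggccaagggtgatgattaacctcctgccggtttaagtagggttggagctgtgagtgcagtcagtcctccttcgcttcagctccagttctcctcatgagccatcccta
Fgb promoter, chr3:83049814-83050113, minus strand: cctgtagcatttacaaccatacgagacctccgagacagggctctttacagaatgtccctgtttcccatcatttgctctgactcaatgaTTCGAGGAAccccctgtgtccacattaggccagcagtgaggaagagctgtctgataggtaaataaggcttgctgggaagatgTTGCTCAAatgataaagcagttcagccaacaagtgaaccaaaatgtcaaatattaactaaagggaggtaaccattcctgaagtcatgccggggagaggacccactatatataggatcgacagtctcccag
Fgg promoter, chr3:83007474-83007773, plus strand: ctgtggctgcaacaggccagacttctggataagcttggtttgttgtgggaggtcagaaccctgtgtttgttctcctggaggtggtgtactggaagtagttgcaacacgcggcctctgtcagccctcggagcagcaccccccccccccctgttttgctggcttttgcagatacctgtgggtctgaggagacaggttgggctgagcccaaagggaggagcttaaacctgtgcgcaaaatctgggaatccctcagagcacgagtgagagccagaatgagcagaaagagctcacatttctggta

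Matches were sought on both strands for TTGCNNAA (C/EBP), TTCNNNGAA (STAT3), CAAAGTCCA (HNF4) and a consensus for HNF1. The Fga and Fgb windows each hold 1 C/EBP and 1 STAT3 match, which do not overlap, and the Fgg window holds 0 of any. RefSeq gave 27 promoters for 26 of the 34 members. Of these 27, 7 hold the C/EBP letters, 6 the STAT3 letters, 2 the HNF1 letters and 0 the HNF4 letters. The shares among 32851 promoters of the same length were 10.8%, 8.3%, 0.399% and 0.475%. A match is a description of the letters and not a bound site.

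Of the 7 vitamin K dependent proteins, all 7 had a fenofibrate mean below 0, with means from -1.09 (F2) to -0.07 (Pros1). The lovastatin means ran from -0.53 to 0.28 with 4 below 0, and the HFC means from -1.11 to 0.31 with 3 below 0. F7, the protease that pairs with tissue factor, was at -0.37 and -1.41 in the fenofibrate mice, -0.37 and -0.4 in the lovastatin mice, and -0.22 and -0.51 in the HFC mice. It was below 0 on all 6 arrays, but 1 fenofibrate value equalled a lovastatin value. Proz, protein Z, the cofactor of an inhibitor of factor Xa, was at -0.74 and -1.06 in the fenofibrate mice, -0.28 and -0.78 in the lovastatin mice, and -1.11 and, put back, -0.08 in the HFC mice. Its HFC mice spanned the whole range of the 6. Proz, F10 and F7 are neighbours on chromosome 8, and their dye-balanced ratios were -0.86, -0.26 and -0.63, with limma adjusted p of 0.163, 0.476 and 0.283.

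F10, the factor X zymogen, was at -0.44 and -0.37 in the fenofibrate mice, -0.06 and -0.19 in the lovastatin mice, and 0.03 and -0.26 in the HFC mice. F9, factor IX, was at -0.52 and -0.33 in the fenofibrate mice, -0.34 and -0.07 in the lovastatin mice, and 0.21 and, put back, 0.11 in the HFC mice. Fenofibrate and lovastatin values of F9 overlapped, while those of F10 did not. Proc, protein C, which inactivates factors Va and VIIIa, was at -0.38 and -0.39 in the fenofibrate mice, -0.08 and 0.14 in the lovastatin mice, and 0.1 and -0.1 in the HFC mice. Its cofactor protein S, Pros1, was at -0.13 and -0.01 in the fenofibrate mice, 0.26 and 0.19 in the lovastatin mice, and 0.12 and, put back, 0.09 in the HFC mice. For both genes the fenofibrate values were the lowest 2.

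In the contact pathway, Kng1, kininogen, the precursor of bradykinin, was at -1.04 and -0.61 in the fenofibrate mice, 0.15 and -0.09 in the lovastatin mice, and -0.29 and, put back, -0.54 in the HFC mice. The fenofibrate values were lower than the rest and the HFC mice lay between. F12, factor XII, ran from -0.43 to 0.15 over the 6 arrays with all groups overlapping. F5, the cofactor of factor Xa, was at -0.51 and -0.54 in the fenofibrate mice, -0.01 and -0.02 in the lovastatin mice, and -0.1 and -0.14 in the HFC mice, so the replicates of each group lay closer together than the groups did. Its fenofibrate minus HFC difference was -0.41 (SE 0.229, 95% interval -0.98 to 0.17). F13b, the carrier subunit of the fibrin cross-linking enzyme, ran from -0.53 to -0.12, with the lovastatin mice lowest.

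Among thrombin inhibitors, Serpind1, heparin cofactor II, was at -0.73 and -0.48 in the fenofibrate mice, -0.28 and -0.28 in the lovastatin mice, and -0.18 and, put back, -0.4 in the HFC mice. Its fenofibrate values were lowest. Serpinc1, antithrombin, was at -0.08 and -0.46 in the fenofibrate mice, -0.04 and 0.12 in the lovastatin mice, and 0.04 and, put back, 0 in the HFC mice, with a dye-balanced ratio of -0.12 (SE 0.135). In fibrinolysis, Serpinf2, the plasmin inhibitor α2-antiplasmin, was at -0.75 and -1.35 in the fenofibrate mice, -0.59 and -0.54 in the lovastatin mice, and -0.56 and, put back, -0.61 in the HFC mice. All 6 were below -0.5, and the dye-balanced ratio was -0.81 (SE 0.152, limma adjusted p = 0.182, or 0.0669 put back). Plg, plasminogen, was at -0.69 and -0.6 in the fenofibrate mice, 0.06 and -0.24 in the lovastatin mice, and -0.52 and -0.59 in the HFC mice. For Plg the fenofibrate and HFC mice lay close together and the lovastatin mice above both, with a dye-balanced ratio of -0.48 (SE 0.108, limma adjusted p = 0.192).

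**Figure D4:**
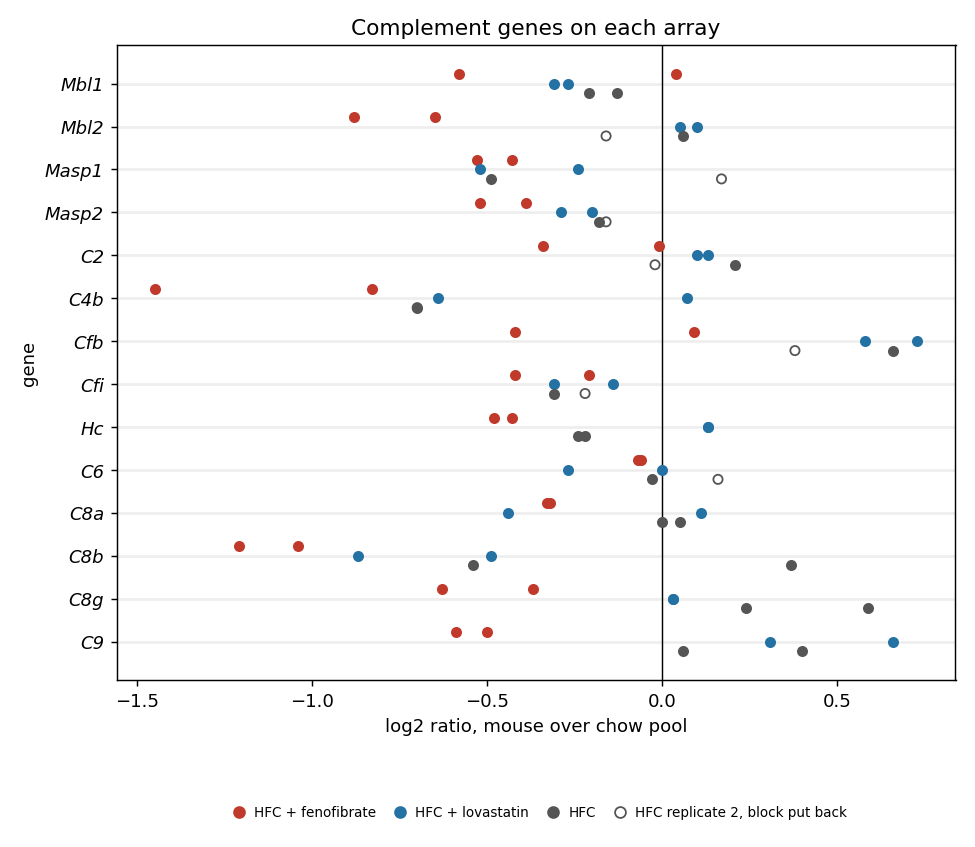
Log2 ratio of mouse over chow pool (x axis) for the 14 complement genes (y axis), with 1 point per array, coloured by group and open for HFC replicate 2 values put back. For Cfb the lovastatin and HFC points lie at 0.38 or higher and the fenofibrate points at 0.09 or lower, and for C4b the 2 HFC points coincide at -0.7.

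Among complement genes, the convertase components split. C4b, whose protein forms the classical and lectin C3 convertase with C2, was at -0.83 and -1.45 in the fenofibrate mice, 0.07 and -0.64 in the lovastatin mice, and -0.7 and, put back, -0.7 in the HFC mice. The fenofibrate values were lowest, and the dye-balanced ratio was -0.82 (SE 0.19, limma adjusted p = 0.257). C4b has a near-identical copy in the mouse genome, so its probe may read both. Cfb, factor B of the alternative pathway convertase, was at 0.09 and -0.42 in the fenofibrate mice, 0.73 and 0.58 in the lovastatin mice, and 0.66 and, put back, 0.38 in the HFC mice. Lovastatin and HFC mice were above 0 and both fenofibrate mice below them. The lovastatin ratio of Cfb was 0.65 (SE 0.22, limma adjusted p = 0.438). C2, which sits beside Cfb on chromosome 17, was at -0.34 and -0.01 in the fenofibrate mice, 0.1 and 0.13 in the lovastatin mice, and 0.21 and, put back, -0.02 in the HFC mice. Its dye-balanced ratio was -0.006 (SE 0.13), close to 0 where that of Cfb was 0.25. Cfi, factor I, which cleaves C3b and C4b, ran from -0.42 to -0.14 with all groups overlapping.

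In the lectin pathway, Mbl2, mannose-binding lectin C, was at -0.65 and -0.88 in the fenofibrate mice, 0.1 and 0.05 in the lovastatin mice, and 0.06 and, put back, -0.16 in the HFC mice. Mbl1, mannose-binding lectin A, was at 0.04 and -0.58 in the fenofibrate mice, -0.27 and -0.31 in the lovastatin mice, and -0.21 and -0.13 in the HFC mice. The fenofibrate mice were lowest for Mbl2, whereas for Mbl1 they spanned all the others. The lectin proteases Masp1 and Masp2 had dye-balanced ratios of -0.46 (SE 0.128) and -0.33 (SE 0.121), with limma adjusted p of 0.326 and 0.45. Masp2 was below 0 on all 6 arrays (-0.52 to -0.16), with the fenofibrate mice lowest. Masp1 was at -0.43 and -0.53 in the fenofibrate mice, -0.24 and -0.52 in the lovastatin mice, and -0.49 and, put back, 0.17 in the HFC mice, so its groups overlapped.

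Of the 6 terminal genes, which encode C5 (Hc) and the pore subunits, all 6 had a fenofibrate mean below 0, from -1.12 (C8b) to -0.065 (C6). The lovastatin means ran from -0.68 to 0.48 and the HFC means from -0.23 to 0.41, each with 3 below 0. C8b was at -1.21 and -1.04 in the fenofibrate mice, -0.87 and -0.49 in the lovastatin mice, and -0.54 and 0.37 in the HFC mice. The HFC mice differed by more than the distance from HFC replicate 1 to the fenofibrate mice. Its neighbour on chromosome 4, C8a, was at -0.33 and -0.32 in the fenofibrate mice, -0.44 and 0.11 in the lovastatin mice, and 0.05 and 0 in the HFC mice, so the lovastatin mice spanned the other 4. C8g was at -0.37 and -0.63 in the fenofibrate mice, 0.03 and 0.03 in the lovastatin mice, and 0.24 and 0.59 in the HFC mice.

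C9, the subunit that polymerises to form the pore, was at -0.5 and -0.59 in the fenofibrate mice, 0.66 and 0.31 in the lovastatin mice, and 0.4 and 0.06 in the HFC mice. Hc was at -0.48 and -0.43 in the fenofibrate mice, 0.13 and 0.13 in the lovastatin mice, and -0.24 and -0.22 in the HFC mice. Its 3 groups were separate, with the lovastatin mice on top and the fenofibrate mice at the bottom. C6, which binds C5b, was at -0.07 and -0.06 in the fenofibrate mice, 0 and -0.27 in the lovastatin mice, and -0.03 and, put back, 0.16 in the HFC mice. The 4 genes Hc, C8b, C8g and C9 had an unadjusted p under 0.05 for fenofibrate against the pool, at limma adjusted p from 0.401 to 0.632. At that level 3.78% of all features were lower and 3.85% higher. The terminal group was chosen with earlier results known, so its count is a description.

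The direct comparisons asked what each drug added to the diet. Fenofibrate minus HFC was below 0 in 29 of 34 members, 16 of 20 for coagulation and 13 of 14 for complement, with medians of -0.35 and -0.37 against -0.02 over all features, of which 51.9% were below 0. By limma, 0 of 34 members passed, as did 0% of all features. At an unadjusted p under 0.05, 5 members were lower (Fgb, F2, C8b, C8g and C9) and 0 higher, against 1.39% of features lower and 1.5% higher. The difference also holds any dye effect, and with the fenofibrate sign turned it was below 0 in 3 of 34 members, against 51.2% of all features. Lovastatin minus HFC, with the mouse in Cy5 on both sides, was below 0 in 17 members and above 0 in 16, with 1 at 0, against 51.3% of features below 0. Its medians were 0.005 for coagulation and -0.035 for complement, and by limma 0 members passed, with 0 at an unadjusted p under 0.05. The features past the threshold came to 0%, and 1.41% were lower and 0.59% higher at an unadjusted p under 0.05. The ends were C8b at -0.59 (95% interval -1.55 to 0.36) and Proz at 0.58 (95% interval -0.48 to 1.64). Proz is a displaced probe whose HFC side is 1 array, at -1.11. With the blocks put back its difference was 0.065, so it was then no longer an end. The 95% interval of a member reached from 0.578 to 1.34 on either side, with a median of 0.883.

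Other genes of the 2 pathways, from lists without the members, were described in the same way. Of 28 other coagulation and fibrinolysis genes measured, 19 were below 0 in the dye-balanced ratio, with a median of -0.12. Over all features 48.8% were below 0 in this ratio, and 0.396% were past the threshold and lower. Serpina1d, of the α1-antitrypsin family, fell (-1.2, SE 0.113, limma adjusted p = 0.027) and 0 rose. It was at -1.51 and -1.4 in the fenofibrate mice, -0.95 and -1.07 in the lovastatin mice, and -1.05 and -0.68 in the HFC mice, below 0 on all 6. The Serpina1 genes are near-identical copies, so the signal may be shared between them. The call was lost without HFC replicate 1 (limma adjusted p = 0.113), HFC replicate 2 (0.0869), fenofibrate replicate 1 (0.453) or fenofibrate replicate 2 (0.547), and with the fenofibrate sign turned, where the ratio was 0.26. Mcfd2 and Lman1, the cargo receptor for secretion of factors V and VIII, were at -0.69 and -0.61 (limma adjusted p = 0.189 and 0.216). At the other end were Anxa2, a cell surface plasminogen receptor, at 0.87 (limma adjusted p = 0.118) and Thbd, thrombomodulin, at 0.5 (limma adjusted p = 0.462).

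Of 29 other complement genes, 24 were below 0 in the dye-balanced ratio, against 48.8% of all features, with a median of -0.18. By limma 0 passed. At an unadjusted p under 0.05, 6 were lower and 1 higher, against 5.64% and 5.19% of all features. The lowest were Fcna, ficolin A, at -0.75, and Serping1, the C1 inhibitor, at -0.69 (limma adjusted p = 0.142 and 0.117). The highest were Clu, clusterin, at 0.42 and Cr2, complement receptor 2, at 0.37 (limma adjusted p = 0.246 and 0.534). Their median was -0.42 in the fenofibrate mice, 0 in the lovastatin mice and -0.092 in the HFC mice.

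Of 19 other acute phase genes 14 were below 0 in the dye-balanced ratio, against 48.8% of all features, with a median of -0.35. By limma 0 passed. At an unadjusted p under 0.05, 9 were lower and 1 higher, against 5.64% and 5.19% of all features. The acute phase median was -0.56 in the fenofibrate mice, 0.085 in the lovastatin mice and -0.22 in the HFC mice. By array it was -0.5 and -0.69 for fenofibrate and -0.21 and -0.325 for HFC. The 2 lovastatin arrays differed in sign, at 0.33 on replicate 1, the array with the widest spread, and -0.23 on replicate 2. Hamp, hepcidin, was lowest at -1.66 (limma adjusted p = 0.058), then Itih1 at -0.68 (limma adjusted p = 0.434), while Cp, ceruloplasmin, was at 0.61 and Hp, haptoglobin, at 0.31 (limma adjusted p = 0.129 and 0.711). Of 24 regulators of liver secretory genes 13 were below 0, against 48.8% of all features, and 0 passed by limma. At an unadjusted p under 0.05, 3 were lower and 5 higher, against 5.64% and 5.19% of all features. Socs3, which is induced by cytokine signalling, was at 1.04 and Nr1i2, the pregnane X receptor, at 0.75 (limma adjusted p = 0.176 and 0.143). Dbp, a clock-controlled transcription factor, was at -0.88 and Cebpd, a C/EBP family factor, at -0.61 (limma adjusted p = 0.216 and 0.239).

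Most hepatocyte markers, too, lay below the pool. Of 11 measured, 10 were below 0 in the dye-balanced ratio, against 48.8% of all features, with a median of -0.72. Ahsg, fetuin A, fell (-1.26, SE 0.145, limma adjusted p = 0.0455), where 0.396% of all features passed and were lower. Ahsg was at -1.55 and -2.23 in the fenofibrate mice, -0.48 and -0.7 in the lovastatin mice, and -0.86 and -0.5 in the HFC mice. Its call was lost with displaced spots as deposited (limma adjusted p = 0.0539), and without HFC replicate 1 (0.177), HFC replicate 2 (0.139), fenofibrate replicate 1 (0.425) or fenofibrate replicate 2 (0.66). With the fenofibrate sign turned its ratio was 0.63 (limma adjusted p = 0.902). The hepatocyte marker median was -0.53 and -1.05 on the fenofibrate arrays, -0.5 and -0.64 on the lovastatin arrays, and -0.53 and -0.34 on the HFC arrays. By group the median of these markers was -0.775 in the fenofibrate mice, -0.59 in the lovastatin mice and -0.525 in the HFC mice. Their part in the members' ratios was not tested. The 12 Kupffer cell and macrophage markers, which include C1q chains and Vsig4 also counted among the other complement genes, had a median of -0.44 in the fenofibrate mice, 0.14 in the lovastatin mice and -0.085 in the HFC mice, and 0 passed. The 9 stellate cell and fibroblast markers had a median of -0.33 in the fenofibrate mice, 0.17 in the lovastatin mice and 0.23 in the HFC mice. These group values take the mean of each gene over its arrays. By array the stellate median was -0.07 and -0.51 for fenofibrate and 0.22 and 0.11 for lovastatin. It was -0.25 (9 genes) and -0.01 (7 genes) on the HFC arrays, so neither HFC array had a median above 0. The 4 red cell markers had a median of -0.46 in the fenofibrate mice, -0.1 in the lovastatin mice and -0.053 in the HFC mice. By group median the Kupffer cell, stellate cell and red cell lists, like the members and the hepatocyte markers, were lowest in the fenofibrate mice. By array, both fenofibrate medians lay below all others for the Kupffer list, but not for the stellate, red cell or hepatocyte lists. Fenofibrate replicate 1 had a stellate median of -0.07, above -0.25 on HFC replicate 1. It had a red cell median of -0.26, above -0.355 on lovastatin replicate 2. Its hepatocyte median of -0.53 equalled that of HFC replicate 1. The part of these lists in the members' ratios was not tested. The endothelial median was -0.14 in the fenofibrate mice, -0.22 in the lovastatin mice and -0.12 in the HFC mice. The platelet median was -0.05 in the fenofibrate mice, -0.12 in the lovastatin mice and -0.08 in the HFC mice. The bile duct median was -0.065 in the fenofibrate mice, -0.31 in the lovastatin mice and 0.2 in the HFC mice. In the dye-balanced ratio 0 genes of the 6 lists other than the hepatocyte markers passed by limma, with 3 lower and 0 higher at an unadjusted p under 0.05. Over all features 5.64% were lower and 5.19% higher at that level. As ratios give no level, the defining markers show relative change and not how much of each cell type the samples held.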

How the data were processed

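The authors deposited 1 value per spot and array, read as a log2 ratio of mouse to chow pool. For these log2 values the scanner software, background correction, normalization and base of the logarithm were not given in the sources used here, so base 2 is an assumption. Without intensities no filter on dim probes was possible. Precision is set by the 6 arrays. Of 22575 spots, 726 lacked values throughout, and 561 control spots repeated across the array were dropped. The platform annotation gave 1 symbol for 18658 spots, several for 30 and none for 3887. Probes of a gene were averaged, giving 16885 named genes and 19515 features with unnamed probes.

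The displaced blocks of HFC replicate 2 were checked by rotating each block along the array rows. Correlated with the other arrays' mean (lovastatin replicate 1 aside), these blocks gave r of -0.0344 to 0.0278 as deposited and 0.237 to 0.256 at the best rotation, where no other rotation exceeded 0.0464.

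Group means were fitted over all 6 arrays with limma 3.58.1 in R 4.3.3, with 1 shared estimate of the spread and Benjamini-Hochberg adjustment over all features at 0.05. Moderated statistics used each feature's own pattern of missing values, and the code was tested on simulated data. The dye-balanced ratio is 0.5 of the fenofibrate mean plus 0.25 of the lovastatin mean plus 0.25 of the HFC mean. Replicates are separate mice per the labels. Members, lists and role groups were chosen with earlier results of these data known, the role groups last, so counts and medians over them are descriptions. The rule names every member, plus, from each other list, genes past the threshold and up to the 2 highest and 2 lowest. Alternatives covered the displaced spots, array weights, centring, quantile normalization, single probes, noisy features, the sign of the fenofibrate arrays, a replicate block and leaving out each array. Tables were prepared in pandas 2.3.3 and numpy 2.4.6 under Python 3.11.15, and plots in matplotlib 3.10.9.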

Additional observations from a re-analysis of the deposited data

Results flagged for a closer look

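In some genes every mouse of one group lay on one side of the pool and every mouse of another group on the other side. Of the 14 members with both HFC arrays valid, 4 had both fenofibrate values below 0 and both HFC values above. They were Fgb (fenofibrate minus HFC -1.8), F2 (-1.4), C8g (-0.92) and C9 (-0.77). With the fenofibrate sign turned, both groups would lie above 0 in these genes. None passed by limma (adjusted p = 1 for each), although all 4 had an unadjusted p under 0.05, and the 2 groups carry opposite dyes. Hc had both lovastatin values above 0 and both HFC values below (lovastatin minus HFC 0.36), and limma did not call it (95% interval -0.22 to 0.94). For neither pair of groups was the share of all features with opposite signs counted, so these counts are descriptions only.

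Between fenofibrate and lovastatin mice 7 members had opposite signs, with fenofibrate lower in each. The differences were -1.37 for F2, -1.03 for C9, -0.84 for Mbl2, -0.58 for Hc, -0.53 for C8g, -0.3 for Pros1 and -0.29 for C2. These differences were not tested, and they too set Cy3 against Cy5. The opposite signs rest on the direction read for the fenofibrate arrays. With that sign turned, both groups would lie on the same side of the pool. The share of all features with opposite signs was not counted, so the 7 are a description only.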

How the results depend on the processing

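For the dye-balanced ratio the count of members past the threshold, 1, became 0 with displaced spots as deposited, quantile normalization, single probes, the sign of the fenofibrate arrays turned and the replicate block (limma adjusted p of F11 0.0616, 0.0535, 0.0502, 0.902 and 0.183), and ran from 0 to 1 when each array was left out. It stayed 1 with blocks put back, array weights, median centring and the noisiest 10% of features removed, where F11 had limma adjusted p from 0.00959 to 0.0489. F11 reversed to 0.35 with the fenofibrate sign turned. With the replicate block F11 was at -1.4, and Serpina1d and Ahsg were not called either (limma adjusted p = 0.1 and 0.138). Replicate numbers did not pair the samples, as deviations of equal-numbered arrays correlated at -0.0277 to 0.0319 between groups. For fenofibrate against the pool the count, 0, became 1 (F11) with array weights and with the noisiest features removed (limma adjusted p = 0.0333 and 0.0342). The other 4 comparisons kept 0 members in every setting run.

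With the fenofibrate sign turned, the coagulation and complement medians were 0.17 and 0.19 for the dye-balanced ratio. Fenofibrate against the pool then had 0.56 and 0.46, fenofibrate minus HFC 0.71 and 0.53. Quantile normalization moved the fenofibrate medians against the pool to -0.68 (coagulation) and -0.55 (complement). Leaving out each array gave coagulation medians of -0.42 to -0.32 for the dye-balanced ratio, -0.2 to -0.05 for lovastatin against the pool, -0.008 to 0.13 for lovastatin minus HFC and -0.42 to -0.23 for fenofibrate minus HFC. Complement medians ran from -0.105 to 0.03 for HFC against the pool, -0.15 to 0.015 for lovastatin against the pool, -0.16 to 0.015 for lovastatin minus HFC and -0.465 to -0.302 for fenofibrate minus HFC. Without HFC replicate 1, 14 members could be tested where HFC was needed. The causes of these changes were not tested.

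Over all features, the dye-balanced count was 110 (77 lower, 33 higher), against 191 put back, 67 as deposited, 230 with array weights, 196 with quantile normalization (114 lower, 82 higher), 346 with the noisiest features removed, and 0 with the replicate block or the fenofibrate sign turned. Leaving out an array gave counts between 0 without either fenofibrate array and 966 without lovastatin replicate 2. For fenofibrate against the pool it was 12, against 32 put back, 111 with array weights, 99 with the noisiest features removed, and 0 with single probes or the replicate block. It was 26 without either lovastatin array and 0 without any one of the other 4. HFC against the pool had 0, against 5 put back, 9 with quantile normalization, 20 with the noisiest features removed and 6 without either lovastatin array. Lovastatin against the pool had 0, against 2 put back, 4 with quantile normalization, 44 with the noisiest features removed and 4016 without lovastatin replicate 2, which leaves the group to replicate 1, the array with the widest spread. In that setting lovastatin minus HFC had 1401, against 0 with all arrays. Fenofibrate minus HFC had 0, against 37 with the fenofibrate sign turned.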
